A study of Mus musculus with 12 samples.

Results

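The early answer of mouse embryonic stem (ES) cell-derived neural cells to doxycycline (Dox) was examined in a line named rtTA-Dmrt5, which carries Dmrt5, today named Dmrta2, under a tetracycline-inducible system. The comparison takes the 2 arrays labelled rtTA-Dmrt5, day 7, +Dox against the 2 labelled rtTA-Dmrt5, day 7, -Dox, that is 4 of the 12 Affymetrix arrays of the study, and covers 18193 genes named by probe sets with 1 gene symbol. All cells grew as a monolayer in N2B27 medium, a serum-free neural medium. Dox was added at day 5 to the +Dox cultures, so the RNA of day 7 was taken 2 days later. The background of Dox without the transgene comes from the parental rtTA line at day 7 (2 arrays labelled -Dox and 2 labelled +Dox), and a later time from rtTA-Dmrt5 at day 9 (again 2 and 2, after 4 days of Dox). The rtTA transactivator is carried by every culture, the parental ones included. The sources used here do not give the promoter that drives it, the number of clones behind each line or the share of induced cells, and mention no sorting. The question behind the comparison is which genes respond soon after Dmrt5 is induced in neural progenitors.

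Dmrt genes encode transcription factors with a zinc-binding DM domain, first known from sex determination. Dmrta2, Dmrta1 and Dmrt3 form a group that is active in progenitors of the dorsal telencephalon, and Dmrta2 is also active in progenitors of the ventral midbrain. Neural progenitors take their regional identity from secreted signals: Wnt and Bmp proteins act from dorsal midlines and boundaries, Shh from the ventral midline, Fgf proteins from the front of the brain and the midbrain-hindbrain boundary, and retinoic acid from behind. These signals set the activity of homeobox, forkhead and bHLH factors, which in turn mark regions and lead to neurons.

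Values are log2 and are relative to the median of each probe set over the 12 arrays, so they show how arrays differ and are not expression levels. Only a coarse class of each probe set's median level could be read, from the spacing of the stored numbers, and "dim" and "bright" refer to it. A difference is the mean of the arrays labelled +Dox minus that of the arrays labelled -Dox. It is given ± its standard error (SE) in the limma fit (n = 2 arrays a group). The fit takes each gene's spread from all groups of the study, so an SE is not the spread of the compared arrays alone. A gene passed when its Benjamini-Hochberg adjusted p was under 0.05 in limma over all 18193 genes, and "rose" and "fell" are used only of genes that passed. Nothing in the labels says whether replicates came from separate cultures. The p-values then reflect only the spread between replicate arrays in the fit, which may be technical. An exact permutation test of 2 arrays against 2 cannot give a p under 0.333.

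Dmrta2 is read by 1 probe set and went against the label. Its values were 1.91 and 1.85 in the arrays labelled -Dox and -0.14 and -0.95 in those labelled +Dox. The groups did not overlap, and the arrays labelled +Dox were the low ones: Dmrta2 fell by 2.42 (SE 0.33, adjusted p = 0.00198). The 4 parental arrays lay between -0.28 and 0.41, so the rtTA-Dmrt5 arrays labelled -Dox stood above them and those labelled +Dox reached from inside their range to below it. The parental difference was 0.10, and that of rtTA-Dmrt5 at day 9 was -2.61. The labels do not tell where on the transcript this probe set lies, or if the transgene includes that stretch. Groups are therefore named by their labels, and each direction below rests on these labels.

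The DNA in front of Dmrta2 is shown because the gene is both the induced factor and a gene that fell. DM domain proteins are known to read an AT-rich site with the core ACAATGT, or ACATTGT on the other strand, a core that Sox factors also read. The promoters used here run from 250 bases before to 50 bases after a RefSeq start on mouse GRCm38.p6. The capitals mark these 7 letters on either strand. In Dmrta2 they begin 55 bases before the start. The other sequences are short windows around the same letters from 3 genes that fell (Olig2, Elavl4 and Srgap3) and 3 that rose (Atp2b2, C77080 and AW047730), picked, with their values known, from the 20 genes that passed and hold the letters.

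Dmrta2 promoter, chr4:109977775-109978074, plus strand: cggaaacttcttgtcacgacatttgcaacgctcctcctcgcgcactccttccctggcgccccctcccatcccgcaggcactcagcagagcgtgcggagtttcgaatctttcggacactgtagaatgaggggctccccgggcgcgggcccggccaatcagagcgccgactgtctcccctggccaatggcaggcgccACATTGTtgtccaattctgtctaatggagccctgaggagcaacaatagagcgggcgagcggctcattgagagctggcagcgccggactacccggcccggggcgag
Olig2 promoter window, chr16:91225470-91225498, plus strand: ccaggaaaagcACATTGTtcccgcccccc
Elavl4 promoter window, chr4:110352042-110352070, minus strand: gcagtcttgaaACATTGTtcctttagatt
Srgap3 promoter window, chr6:112947337-112947365, minus strand: tcctgtaggctACAATGTgtcagttgtta
Atp2b2 promoter window, chr6:113934788-113934816, minus strand: tgcaacttctaACATTGTtcaaaatcact
C77080 promoter window, chr4:129261466-129261494, minus strand: tcctacagaggACATTGTgccttaggagg
AW047730 promoter window, chr3:88198166-88198194, plus strand: gctcaggagggACAATGTaagcagatggt

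The match in the Olig2 promoter begins 69 bases before its start, and Olig2, a bHLH factor of motor neuron and oligodendrocyte progenitors, fell by 1.68. Elavl4, an RNA-binding protein of neurons, fell by 0.67 and has the letters 148 bases before its start. Srgap3, which takes part in shaping neurites, fell by 0.67, and its match lies 88 bases before the start. Atp2b2, a calcium pump of the plasma membrane, rose by 0.88, with the letters 124 bases before the start. The letters were no more common among genes that passed: they were found in 8 of 560 promoters of genes that rose (1.43%), in 12 of 749 of genes that fell (1.60%) and in 342 of 18009 promoters of all genes tested (1.90%). None of the 28 promoters found for the 24 genes with the largest changes holds them. Longer stretches and distant sites were not analysed here.

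At day 7, 1262 of 18193 genes passed (6.94%). Of these, 561 rose (3.08%) and 701 fell (3.85%) under the label +Dox. At 2-fold or more, 100 rose (0.55%) and 228 fell (1.25%), 328 in all (1.8%). At 4-fold or more, 10 rose and 30 fell. The median rise was 0.62 and the median fall -0.79. Over all genes the median difference was 0.013, and the 5th and 95th percentiles were -0.46 and 0.42. Replicates differed by a median of 0.10 between the arrays labelled -Dox and 0.099 between those labelled +Dox. The arrays of both groups did not overlap in any of the 1262 genes, but nor did they in 10337 genes in all (56.8%). The count rests on all 4 arrays. Leaving out -Dox replicate 1 gave 618 genes and -Dox replicate 2 gave 551, while leaving out +Dox replicate 1 gave 638 and +Dox replicate 2 gave 515. Of the 24 genes with the largest changes, 24 still passed in the same direction when -Dox replicate 1 or +Dox replicate 2 was left out. Without -Dox replicate 2 or +Dox replicate 1, Nepn (1.75 and 1.78) no longer passed. Dim genes passed less often, at 1.96% of genes with a median log2 level of 2 to 4 against 10.3% at 4 to 8 and 7.12% at 8 or more.

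**Figure D1:**
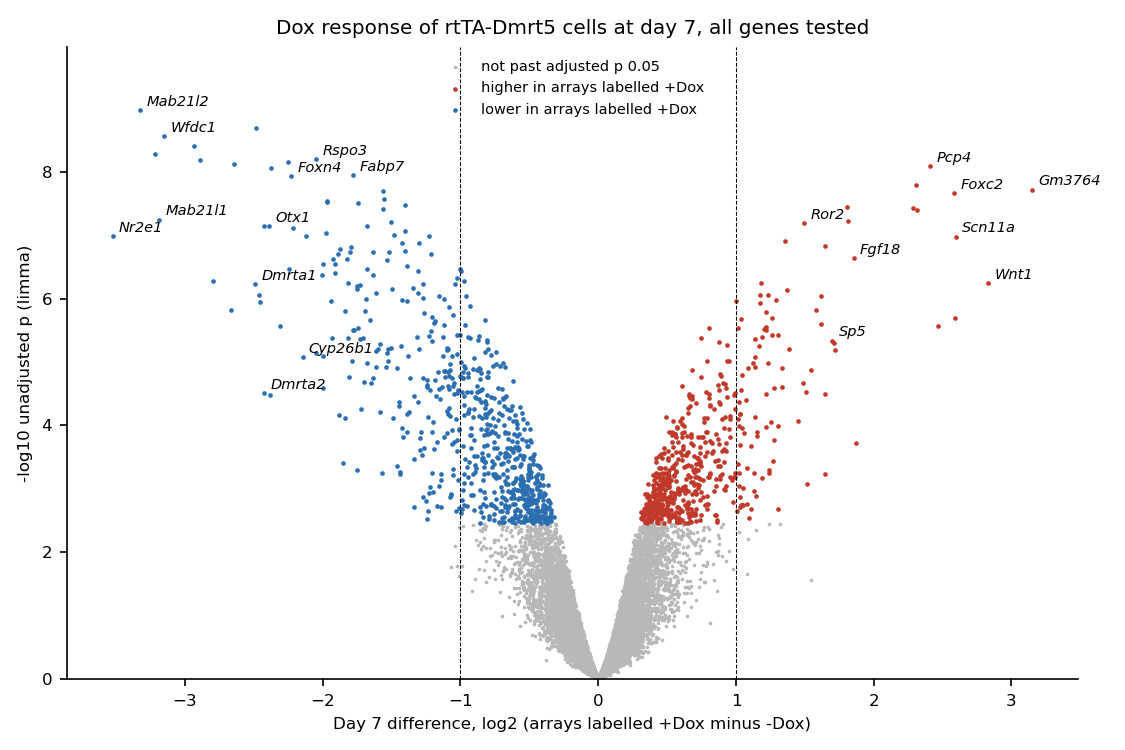
Difference of each of 18193 genes at day 7 (x axis, log2, arrays labelled +Dox minus -Dox) against -log10 of the unadjusted limma p (y axis), with dashed lines at 2-fold. Red points rose (561) and blue points fell (701), and the largest fall, Nr2e1 at -3.52, and the largest rise, Gm3764 at 3.15, lie at the edges.

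The largest falls included regulators of the forebrain and eye. Nr2e1, an orphan nuclear receptor that keeps forebrain neural stem cells dividing, had values of 1.71 and 1.99 in the arrays labelled -Dox and of -1.61 and -1.74 in those labelled +Dox. That is an 11.5-fold fall (-3.52 ± 0.25, adjusted p = 4.69e-05), and the groups lay on either side of the parental arrays, which ran from -0.35 to 0.21. In these mixed cultures, fewer cells of a type and less RNA per cell cannot be told apart. Mab21l2 and Mab21l1, related genes needed for the eye, moved alike. Mab21l2 had 0.64 and 0.77 against -2.45 and -2.79 (-3.33 ± 0.15, adjusted p = 1.45e-05), and Mab21l1 had 1.16 and 1.13 against -1.89 and -2.19 (-3.19 ± 0.21, adjusted p = 3.83e-05). Dmrta1, a close relative of the induced gene, had 1.41 and 2.03 against -0.74 and -0.80 (-2.49 ± 0.21, adjusted p = 0.000141), and Tfap2d, an AP-2 type factor of the midbrain and retina, had 0.80 and 0.66 against -1.49 and -2.39. That the groups do not overlap was a condition for choosing these genes. In each of them the groups were further apart than the replicates.

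The other 7 of the 12 largest falls code mostly for secreted and membrane proteins. Wfdc1, a small secreted protein with a protease inhibitor fold, had 2.13 and 2.30 in the arrays labelled -Dox and -1.03 and -0.84 in those labelled +Dox (-3.15 ± 0.15). Cartpt, the precursor of the CART neuropeptides, had 0.53 and 0.60 against -1.85 and -1.99 (-2.48 ± 0.12). Col3a1, a fibrillar collagen of connective tissue, had -0.16 and 0.17 against -2.74 and -2.83 (-2.79 ± 0.24). In these 3 the groups were apart by many times the gap between replicates, but they were chosen for large changes without overlap. Ndnf, a secreted protein of neurons, had 0.029 and -0.029 against -3.01 and -2.85 (-2.93 ± 0.15), and a second, dimmer probe set gave -0.55. Adgrv1, a very large adhesion receptor, was close to 0 in both arrays labelled -Dox and at -2.46 and -2.83 in those labelled +Dox (-2.64 ± 0.14), while its dimmer probe set gave -0.092. The dimmer of the probe sets of Nr2e1 gave -0.23. Pdzph1 had -0.089 and 0.060 against -3.03 and -2.78 (-2.89 ± 0.15), and the predicted gene Gm20083 had 1.20 in both arrays labelled -Dox against -1.81 and -2.24 (-3.22 ± 0.17).

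Among the largest rises, Wnt1, a secreted signal of the midbrain-hindbrain boundary and the dorsal midline, stood at 0.39 and 0.50 in the arrays labelled -Dox and at 3.30 and 3.25 in those labelled +Dox. The rise was 7.11-fold (2.83 ± 0.24, adjusted p = 0.000141), and both arrays labelled +Dox lay above all other day 7 arrays, the highest parental one being at -0.39. Foxc2, a forkhead factor of mesenchyme, moved from -2.30 and -2.40 to 0.17 and 0.30 (2.58 ± 0.16, adjusted p = 2.29e-05). Pcp4, a small calmodulin-binding protein of neurons, moved from -2.53 and -2.64 to -0.14 and -0.22 (2.41 ± 0.13, adjusted p = 1.45e-05). Fgf18, a ligand found at the midbrain-hindbrain boundary, moved from -1.64 and -1.44 to 0.30 and 0.32 (1.85 ± 0.14, adjusted p = 7.66e-05). Foxc2, Pcp4 and Fgf18 share a shape: the arrays labelled -Dox were the ones that stood apart, and those labelled +Dox lay near the parental arrays, which ran from -0.36 to 0.51 for Foxc2, from -0.088 to 0.27 for Pcp4 and from -0.030 to 0.16 for Fgf18.

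The remaining rises have the other shape, with the arrays labelled +Dox standing apart, except for Defa31. Scn11a, a sodium channel best known from pain-sensing neurons, moved from -0.21 and 0.13 to 2.72 and 2.40 (2.60 ± 0.19), and it is a dim probe set with a median log2 level of 2 to 4. Hlf, a PAR bZIP factor, moved from near 0 to 2.42 and 2.18 (2.32 ± 0.15, with its probe sets at 1.75 and 2.88), and Rab37, a small GTPase of secretory vesicles, from -0.11 and -0.21 to 2.11 and 2.18 (2.31 ± 0.13). All arrays labelled +Dox were above all others of day 7 in these 3 genes. Islr, a membrane protein of mesenchyme, moved from -0.090 and -0.29 to 2.50 and 2.06 (2.47 ± 0.25), and Nepn, a small leucine-rich proteoglycan, from 0.30 and 0.062 to 2.14 and 1.96 (1.87 ± 0.32, adjusted p = 0.00706). Krtap17-1, a hair keratin-associated protein, moved from 0.048 and -0.14 to 2.07 and 2.40 (2.28 ± 0.15), and its probe set is dim too, at 2 to 4. Gm3764 had the largest rise, from -1.19 and -0.50 to 2.26 and 2.34 (3.15 ± 0.19), but 1 of its 3 probe sets gave -0.19. Defa31 (2.59 ± 0.26), of the near-identical alpha-defensin family, is read by a probe set that may detect its relatives, and its values of 1.51 and 2.05 in the arrays labelled +Dox lay nearer the parental mean than the -0.93 and -0.70 of those labelled -Dox.

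**Figure D2:**
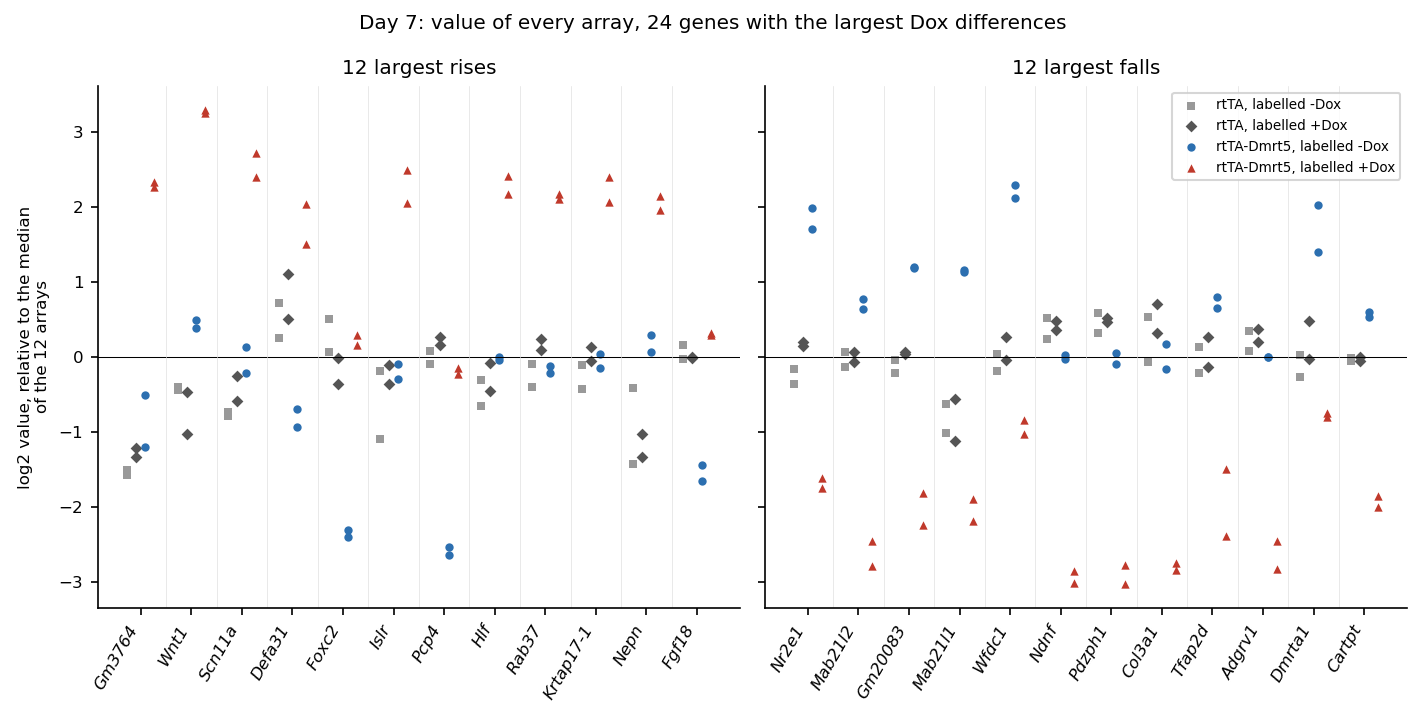
Value of every day 7 array (y axis, log2 relative to the median of the 12 arrays) for the 12 genes with the largest rises and the 12 with the largest falls (x axis), with grey symbols for the parental rtTA line, blue circles for rtTA-Dmrt5 arrays labelled -Dox and red triangles for those labelled +Dox. The 2 rtTA-Dmrt5 groups do not overlap in any of the 24 genes, which was a condition for choosing them. The parental arrays lie nearer the mean of the arrays labelled -Dox in 8 rises and 8 falls and nearer that of the arrays labelled +Dox in 4 and 4.

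The group means lay on both sides of the mean of the 4 parental arrays in 4 of the 12 largest rises and 8 of the 12 largest falls, and in 11 of the next 18 rises and 12 of the next 18 falls. That parental mean lay nearer that of the arrays labelled -Dox for 16 of the next 18 rises and 11 of the next 18 falls, and nearer that of the arrays labelled +Dox for 2 and 7. Some of these were near ties, such as Ror2 (-0.71 and 0.78 from the parental mean) and Prima1 (1.09 and -1.16). The falls that ended near the parental level include Otx1, a homeobox factor of the fore- and midbrain, with 2.39 and 2.14 in the arrays labelled -Dox, -0.040 and -0.20 in those labelled +Dox and -0.080 to 0.35 in the parental arrays. Rspo3, a secreted amplifier of Wnt signals, had 1.77 and 1.88 against -0.21 and -0.23, with parental arrays between -0.11 and 0.079. These are descriptions, since the lines also differed without Dox and no parental day 9 arrays were analysed here. In the parental line 0 of 18193 genes passed for Dox (0%), and 929 had an unadjusted p under 0.05, against 3744 in rtTA-Dmrt5. The 24 genes differed by -0.48 to 0.43 there. The difference between the lines in their response passed in 516 genes (2.84%), 156 with the larger value in rtTA-Dmrt5 (0.857%) and 360 with the smaller (1.98%). All 24 are among the 516, but they were chosen on arrays that enter this difference.

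The next 18 falls, by size, were led by the glycine receptor subunit Glra1 (-2.46), Pgm5 (-2.46), Dmrta2, Gm38604 (-2.42), Otx1 (-2.39) and the homeobox gene Gsx1 of the ventral forebrain (-2.38). The protocadherin Pcdh8 (-2.37), Gm38491 (-2.31), the cholinesterase anchor Prima1 (-2.25), the protease Prss23 (-2.24), Foxn4, a forkhead factor of retina and interneuron progenitors (-2.23), and A2m, a protease inhibitor (-2.21), followed. The group ends with Cyp26b1, which breaks down retinoic acid (-2.15), the potassium channel Kcnh1 (-2.12), Pou3f4 (-2.05), Rspo3 (-2.05), the corepressor Runx1t1 (-2.01) and B130024G19Rik (-2.0). The next 18 rises were smaller. They hold 2 genes of Wnt signalling, the factor Sp5 (1.70) and the receptor Ror2 (1.49), and the guidance ligand Slit3 (1.61). They also hold 3 metabolic genes, the urea cycle enzyme Arg1 (1.65), the P450 Cyp1b1 (1.58) and Aldh1a7 (1.52, a near copy of Aldh1a1 that its probe set may also read), and 2 genes of epithelia, the claudin Cldn9 (1.64) and the keratin Krt7 (1.45). The others are Micalcl (1.81), C130026L21Rik (1.81), the dendrite protein Ddn (1.72), 2610035D17Rik (1.71), Sned1 (1.65), Gfod1 (1.62), the synaptic pentraxin Nptx2 (1.54), the actin bundler Lcp1 (1.51) and 2 genes of insulin-like growth factor (Igf) control, the protease Pappa (1.48) and the binding protein Igfbp5 (1.39). Cldn9 and C130026L21Rik are dim, at 2 to 4, and the probe sets of Cldn9 gave 0.56 and 2.73. The lowest probe set gave 0.0080 for Cyp1b1, 0.086 for 2610035D17Rik, 0.15 for Nptx2, 0.32 for Pappa and 0.34 for Gfod1.

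Groups of genes were then read from 54 lists of families, pathways and markers with more than 2 measured members. Of 1510 listed genes measured, 342 passed (22.6%), a higher share than the 6.94% of all genes. The lists hold developmental genes, so a share for a list stands beside both numbers. Of the 19 Wnt ligands measured, 6 rose and 3 fell (47.4%), with a list median of 0.11. Besides Wnt1, the ligands that rose were Wnt5b (1.22 ± 0.17), Wnt8a (0.93), Wnt9a (0.83, with 1 of its 2 probe sets at -0.22), Wnt5a (0.72) and Wnt4 (0.70). Ror2, a receptor of Wnt5a and Wnt5b, rose with them (from -0.59 and -0.62 to 0.94 and 0.83). The ligands that fell were Wnt7a (-1.05 ± 0.14), Wnt7b (-1.03 ± 0.16) and Wnt3 (-1.0 ± 0.11). Wnt7a had 0.19 and 0.33 against -0.73 and -0.83, Wnt7b 0.11 and 0.0031 against -1.01 and -0.93, and Wnt3 0.98 and 1.20 against -0.025 and 0.20. All 3 were lower in both arrays labelled +Dox, as were all genes that fell. Without 1 array, 2 to 4 ligands rose and 3 fell.

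Wnt receptors and secreted regulators went both ways, 6 up and 7 down of 37 (35.1%). Both R-spondins that passed fell, Rspo3 by 2.05 and Rspo2 by 1.77 (with 1 of its 2 probe sets at 0.050), together with their receptor Lgr4 (-0.86). The secreted Wnt antagonists Sfrp2 (-0.97) and Frzb (-0.52) and the receptor Fzd3 (-0.82) also fell. The inhibitors Wif1 (0.95), Notum (0.74) and Dkk1 (0.67) and the receptors Fzd9 (0.86) and Fzd2 (0.47) rose. Of 11 feedback targets of Wnt and beta-catenin, 4 rose and 0 fell: Sp5, Notum, Dkk1 and Nkd1 (0.65). Sp5 moved from -0.45 and -0.59 to 1.21 and 1.15, Notum from 0.17 and 0.19 to 0.91 and 0.93, and Nkd1 from -0.55 and -0.37 to 0.19 and 0.18. The groups were apart in each of them, as in all genes that passed. The targets Axin2 (0.27 ± 0.26, adjusted p = 0.636) and Lef1 (0.33 ± 0.25, adjusted p = 0.521) did not pass. With 1 array left out, 2 or 3 targets rose, and of the receptors and regulators 3 rose and 5 or 6 fell.

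Fgf ligands that passed mostly rose, and Fgf feedback genes that passed fell. Of 30 Fgf ligands and receptors, 5 rose and 2 fell (23.3%). After Fgf18, the risers were Fgf3 (1.22), Fgf15 (0.79), Fgf17 (0.65) and Fgf4 (0.58), and those that fell were Fgf9 (-0.37) and the binding protein Fgfbp3 (-0.43). Fgf15 had 0.16 and 0.024 in the arrays labelled -Dox and 0.85 and 0.91 in those labelled +Dox. Fgf8, the main organizer signal of the midbrain-hindbrain boundary, gave 0.36 ± 0.13 and did not pass (adjusted p = 0.146). Of 12 genes that are switched on by Fgf signalling and mostly dampen it, 5 fell and 0 rose (41.7%), with a list median of -0.30 and 11 of 12 members below 0. They were the phosphatases Dusp6 (-1.69 ± 0.15, adjusted p = 0.000196) and Dusp4 (-0.97), the factors Etv4 (-0.61) and Etv5 (-0.36), and Spred3 (-0.54). Dusp6 had 0.37 and 0.30 against -1.46 and -1.23, with the parental arrays between 1.16 and 1.56. Spry2 (-0.36, adjusted p = 0.107) and Spry1 (-0.20, adjusted p = 0.438) did not pass. When 1 array was left out, 2 to 4 of these genes fell, and 3 or 4 of the ligands and receptors rose and 0 fell.

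Of 37 genes of Bmp, activin and Tgf-beta signalling, 5 rose and 2 fell (18.9%). The ligands Bmp7 (1.18 ± 0.11), Bmp4 (1.03 ± 0.23) and Bmp5 (0.42), the activin subunit Inhbb (1.12, with 1 of its 2 probe sets at -0.067) and the Nodal co-receptor Tdgf1 (0.44) rose. Bmp7 moved from -0.16 and -0.24 to 0.98 and 0.97, and Bmp4 from -0.87 and -0.19 to 0.46 and 0.53, so that Bmp4's replicates were far apart in the arrays labelled -Dox. The genes that fell were the activin antagonist Fst (-1.02) and its relative Fstl5 (-2.0, 1.54 and 0.73 against -0.99 and -0.73). In the Hedgehog pathway, 3 of 15 genes rose and 2 fell (33.3%). The ligand Shh (-1.02, 0.24 and 0.0020 against -0.84 and -0.96) and the co-receptor Boc (-0.56) were lower, and the co-receptor Cdon (1.18), the ligand Ihh (0.89) and the pathway's target and factor Gli1 (1.0, 0.026 and 0.044 against 1.13 and 0.94) were higher. The target Ptch1 gave -0.12 ± 0.09 and did not pass (adjusted p = 0.523). With any 1 array left out, 2 to 4 Bmp genes rose and 2 fell, and 2 or 3 Hedgehog genes rose and 0 to 2 fell.

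In the Notch pathway 4 of 28 genes rose and 3 fell (25%). The atypical ligand Dlk1 (1.26), the Fringe enzyme Lfng (1.03), the effector Hes1 (0.68) and the receptor Notch1 (0.52) were higher, and the atypical ligands Dner (-1.56) and Dll3 (-0.58) and the Hes1 antagonist Hes6 (-0.34) were lower. Dner, which is found on neurons, had 0.11 and 0.22 against -1.35 and -1.45. Dll1 (0.0073 ± 0.18) and Hes5 (0.15 ± 0.16) did not pass. Among 16 genes that handle retinoids and thyroid hormone, 4 rose and 1 fell (31.2%). The retinoic acid-making enzyme Aldh1a2 (1.28), Aldh1a7, the retinol carrier Rbp4 (1.13) and its receptor Stra6 (1.03) were higher, and Cyp26b1 was lower. Cyp26b1 had -0.57 and -0.52 in the arrays labelled -Dox, -2.35 and -3.03 in those labelled +Dox and 1.24 to 1.92 in the parental arrays, so both rtTA-Dmrt5 groups stood below the parental line. Aldh1a2 had -1.09 and -0.84 against 0.55 and 0.077, all under the parental range of 1.82 to 2.46. Leaving out 1 array, 2 or 3 Notch genes rose and 1 or 2 fell, and 1 or 2 retinoid genes rose. The retinoic acid target Rarb gave -0.27 ± 0.26 and did not pass.

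**Figure D3:**
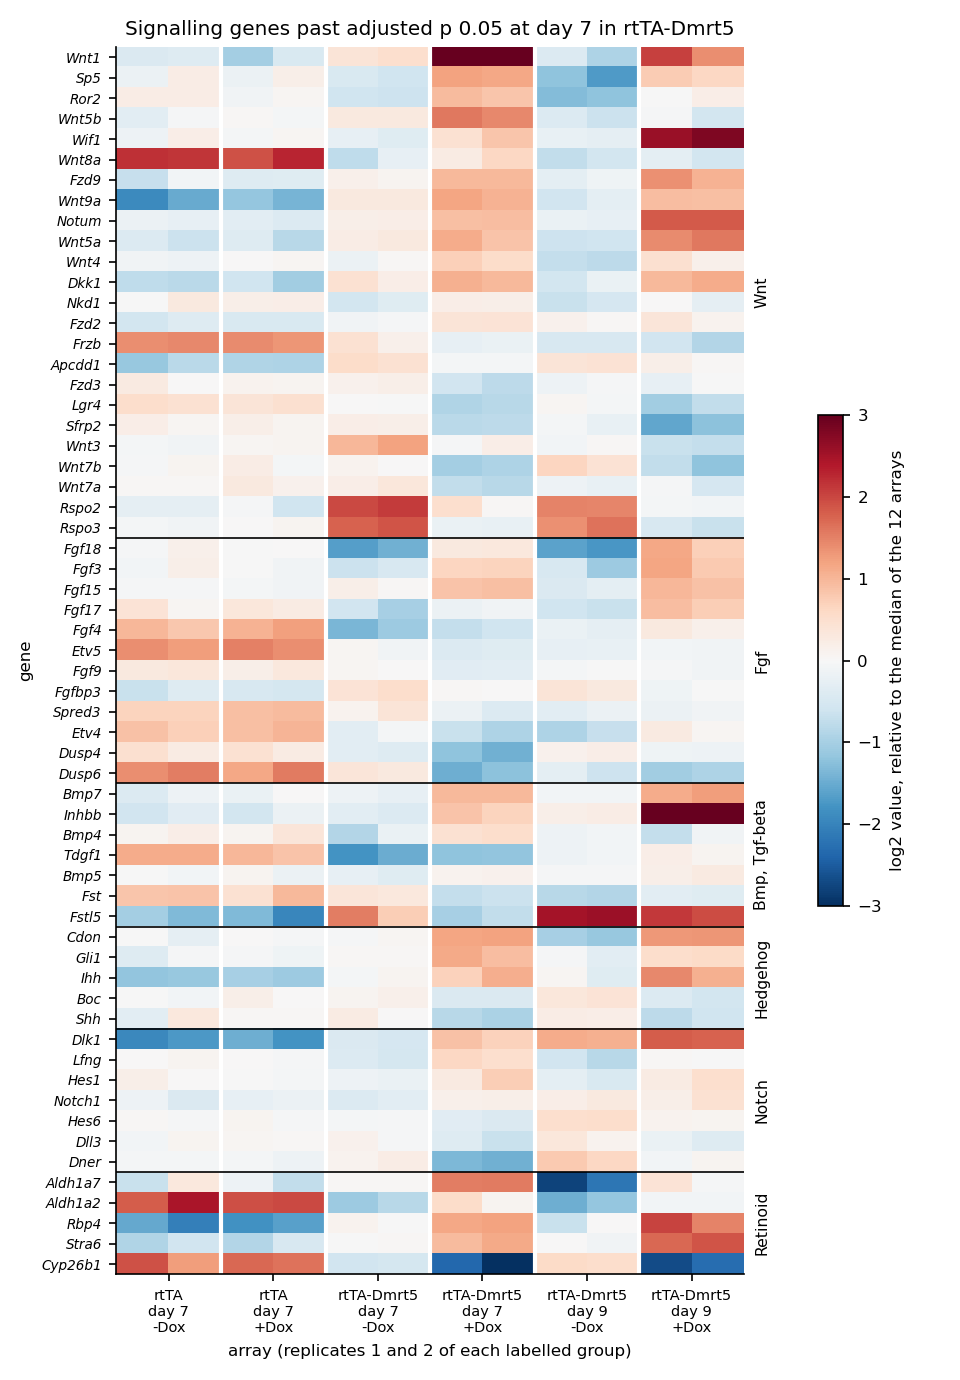
Values of the 60 signalling genes that passed at day 7 (rows, by pathway and then by day 7 difference) in all 12 arrays (columns, by labelled group), coloured from -3 (blue) to 3 (red) as log2 relative to the median of the 12 arrays. The rows were chosen for passing, so the day 7 rtTA-Dmrt5 columns labelled -Dox and +Dox differ in every row. In rows such as Dusp6 and Cyp26b1 both differ from the parental columns.

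Regional factors of the cortex and of the head in general fell more often than they rose. Of 38 factors of the cortex and its signalling edge, the cortical hem, 15 fell and 5 rose (52.6%), with a list median of -0.24. After Nr2e1, Dmrta1 and Dmrta2, those that fell included the nuclear receptors Nr2f1 (-1.97) and Nr2f2 (-1.38), which pattern the cortex, Fezf1 (-1.75), the LIM factors Lhx2 (-1.65) and Lhx9 (-0.67), Dmrt3 (-1.17, with 1 of its 4 probe sets at 0.042), Emx2 (-0.81) and Pax6 (-0.71). Lhx2, which makes tissue cortical rather than hem, had 0.49 and 0.52 against -1.09 and -1.19. The 5 that rose were Bmp7, Bmp4, Wnt5a, Lhx5 (0.46) and Bcl11a (0.94). Emx1, a marker of cortical progenitors, gave 0.10 ± 0.21 and did not pass. Of these factors, 10 to 13 fell and 2 or 3 rose when 1 of the 4 arrays was left out. Over the 29 homeobox genes of the head, 10 fell and 3 rose (44.8%): Otx1, Gsx1, En2 (-2.0), Dbx1 (-1.97), Shox2 (-1.93), Uncx (-1.39), Gbx2 (-1.20), Tlx1 (-0.98), Emx2 and Otx2 (-0.39) were lower, and Rax (1.29), En1 (1.20) and Prrx1 (1.03) higher. Of these 29, without 1 array, 6 to 9 fell and 2 or 3 rose.

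The relatives En1 and En2, both factors of the midbrain and anterior hindbrain, moved apart. En1 had -0.012 and -0.11 in the arrays labelled -Dox and 1.23 and 1.05 in those labelled +Dox (1.20 ± 0.12, adjusted p = 0.000436). En2 had 0.61 and 0.31 against -1.54 and -1.52 (-2.0 ± 0.16, adjusted p = 8.85e-05). The groups were apart in both genes, as in all that passed, but in opposite order. Of 49 factors of the midbrain and its boundaries 10 rose and 15 fell (51.0%). Foxa2, a factor of the floor plate, moved from 0.014 and -0.13 to 1.18 and 1.21 (1.25 ± 0.19, adjusted p = 0.00406), and Tal2 (0.98), a factor of midbrain GABA neurons, rose as well. The falls included Barhl2 (-1.49), Meis2 (-1.40), Pou4f1 (-1.08), Cnpy1 (-0.99) and Irx3 (-0.75). Lmx1a, a factor of dopaminergic progenitors, gave 0.98 ± 0.35 and did not pass (adjusted p = 0.14), and Lmx1b (-0.12 ± 0.12), Msx1 (0.14 ± 0.11) and the dopaminergic factor Nr4a2 (0.059 ± 0.11) did not pass either.

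Other families of factors were tallied in the same way. Of 10 Zic and Gli genes 5 fell and 1 rose (60%): Zic1 (-1.71, 1.51 and 1.62 against -0.026 and -0.25), Zic4 (-1.19), Zic5 (-0.88), Zic2 (-0.70) and Glis3 (-0.46) were lower, and Gli1 was higher. Of 17 Iroquois, Six3-type, Eya and Dach genes 7 fell, led by Dach1 (-1.55), Irx6 (-1.27) and Irx5 (-0.94), and 1 rose (47.1%). Six3, a factor of the anterior forebrain and eye, fell by 0.90 with 1 of its 3 probe sets at 0.12. Of 8 Pax genes 3 fell (37.5%), Pax3 (-1.74, 0.15 and 0.23 against -1.40 and -1.70), Pax7 (-0.90) and Pax6, and of 18 Sox genes 3 fell (16.7%), Sox21 (-1.97), Sox2 (-0.70) and Sox3 (-0.50, with 1 of its 2 probe sets at 0.36). Sox1 (0.15 ± 0.15) and Sox9 (0.31 ± 0.13) did not pass. In the Hox cluster genes, which mark hindbrain and spinal cord, the share was near that of all genes, 1 up and 1 down of 33 (6.06%): Hoxb1 (1.08) and Hoxa2 (-1.06). Forkhead factors had 3 rises and 3 falls among 31 (19.4%), LIM homeobox and Lmo genes 3 and 4 among 18 (38.9%), nuclear receptors 3 and 4 among 38 (18.4%), and Nkx, Dlx and Msx genes 2 and 1 among 23. Their medians lay between -0.00745 and 0.0608. Without 1 of the 4 arrays 3 or 4 Zic and Gli genes, 4 to 6 Iroquois and Six3-type genes, 2 Pax genes and 2 Sox genes fell. In those fits 0 Hox genes rose and 1 fell, 2 forkhead factors rose and 1 fell, 1 or 2 LIM genes rose and 3 or 4 fell, 1 or 2 nuclear receptors rose and 3 fell, and 0 or 1 of the Nkx list rose and 1 fell.

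**Figure D4:**
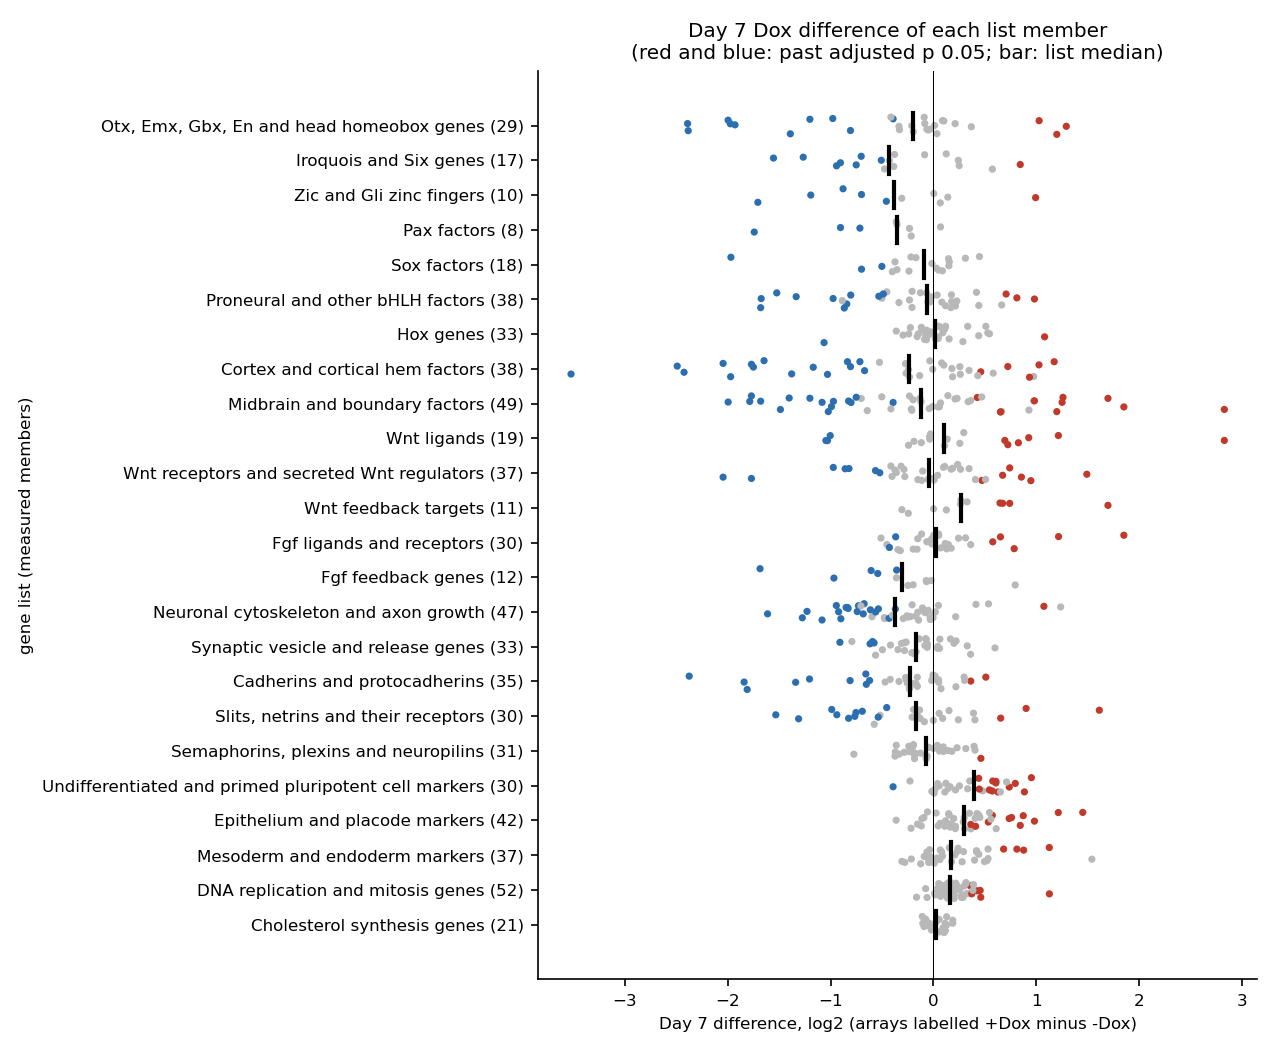
Day 7 difference (x axis, log2, arrays labelled +Dox minus -Dox) of each measured member of 24 gene lists (y axis, number of members in brackets), red or blue where the gene passed, grey where it did not, with a black bar at the list median. Neuronal cytoskeleton genes (median -0.37), Iroquois and Six3-type genes (-0.43) and Fgf feedback genes (-0.30) lie mostly left of 0, and pluripotency (0.40) and epithelial markers (0.30) mostly right of it.

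Genes that lead progenitors to neurons, and genes of neurons, mostly fell where they passed. Of 38 bHLH factors 10 fell and 3 rose (34.2%). The falls were in Olig2 (-1.68), Nhlh1 (-1.67), Neurod4 (-1.52), Ptf1a (-1.33), Neurog1 (-0.98), Id2 (-0.87), Neurod1 (-0.84), Olig1 (-0.80), Twist1 (-0.53) and Tcf12 (-0.49), many of them factors of neurogenesis. The rises were in Tal2, Tcf15 (0.81) and Id4 (0.71), so the relatives Id2 and Id4 moved apart. Neurog2 (0.66 ± 0.26, adjusted p = 0.178) did not pass. Ebf1 (-1.35), Onecut1 (-1.44), Pou3f2 (-0.85) and Isl1 (-1.72), which act in young neurons, fell too. Of 47 genes of the neuronal cytoskeleton and axon growth 19 fell and 1 rose (42.6%), and 40 of 47 were below 0, with a list median of -0.37. Examples are the neurofilaments Nefm (-1.61) and Nefl (-1.23), the kinesin Kif5a (-1.08), Ina (-0.94), the RNA-binding Elavl3 (-0.90), the growth cone protein Gap43 (-0.61) and Dcx (-0.56). Nefl had -0.14 and -0.10 against -1.32 and -1.38, Tubb3 -0.22 and -0.24 against -0.89 and -0.93, and Stmn2 -0.064 and -0.075 against -0.82 and -0.80. The groups did not overlap in these 3 genes, as in all that passed, and all 3 were bright. The gene that rose was the neuronal factor Myt1l (1.08, with 1 of its 5 probe sets at -0.14). With 1 array left out, 10 to 15 of this list and 5 or 6 of the bHLH factors fell.

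Few of the synaptic genes passed. Of 33 genes of synaptic vesicles and release, 4 fell (12.1%), Syt1 (-0.91, with 1 of its 4 probe sets at 0.25), Rab3a (-0.62), Stx1a (-0.59) and Doc2b (-0.58), and with 1 array left out 0 or 1 did. Snap25 (-0.79 ± 0.30, adjusted p = 0.163) did not pass. Of 20 genes of transmitter identity 5 fell (25%): Th (-1.79), which makes dopamine, with 0.99 and 0.71 against -0.63 and -1.25, Slc17a6 (-1.19), which loads glutamate into vesicles, Tph1 (-1.01), Dbh (-0.91) and Gad2 (-0.68), which makes GABA. Of 50 transmitter receptors 8 fell, among them Glra1, Grm2 (-1.81) and Gria1 (-1.75), and the serotonin-gated channel Htr3a (1.31) rose (18%). Of 44 neuropeptides and receptors 5 fell (11.4%): Cartpt, Sst (-1.88, 1.08 and 1.26 against -0.64 and -0.77), Tacr3 (-1.70), Adcyap1 (-1.29) and Ednrb (-0.45, with 1 of its 3 probe sets at 0.16). Ion channels went both ways, 6 up and 7 down of 67 (19.4%). The calcium channels Cacna1g (1.05), Cacna1h (0.92) and Cacna1d (0.50) rose with Scn11a and Kcne3 (1.27), and Cacna1e (-1.06), Kcnc2 (-1.89) and Kcnh1 fell. When an array was left out, 3 to 5 transmitter genes, 5 or 6 receptors, 4 neuropeptide genes and 3 to 9 channels fell, and 4 or 5 channels rose.

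Genes of axon guidance and cell adhesion mostly fell where they passed. Of 30 slits, netrins and their receptors 10 fell and 3 rose (43.3%). Slit2 fell (-0.82) and Slit3 rose, and the receptors Robo1 (-0.69), Robo3 (-0.75) and Dcc (-0.94) fell while the Dcc ligand Ntn1 rose (0.66, with 1 of its 2 probe sets at -0.21). Lrrn3 (-1.53), Rgmb (-1.31) and Flrt2 (-0.99) were also lower. Of 21 Ephs and ephrins 6 fell and 2 rose (38.1%): the class A members Epha3 (-1.46), Epha5 (-1.10), Epha10 (-1.02), Epha7 (-0.93), Efna2 (-0.82) and Epha2 (-0.48) were lower, and the class B members Ephb3 (0.92) and Efnb1 (0.44) higher. Ephb3 had -0.16 and -0.30 against 0.73 and 0.66, and Epha3 had -0.049 and -0.013 against -1.23 and -1.76. Of 31 semaphorins, plexins and neuropilins 1 rose, Sema3b (0.46), a share of 3.23%. Of 35 cadherins and protocadherins 9 fell and 2 rose (31.4%), with Pcdh8, Fat4 (-1.84), Cdh7 (-1.81), Cdh8 (-1.34) and Pcdh17 (-1.20) lower and Cdh22 (0.51) and the epithelial Cdh1 (0.36) higher. Cdh2, the cadherin of neural tissue, gave -0.27 ± 0.09 and did not pass (adjusted p = 0.135). Of 36 Ig-type adhesion genes 7 fell, led by Nectin3 (-1.06) and Nrcam (-0.91), and 1 rose (22.2%). In fits that left out 1 array, 5 to 7 genes of the slit and netrin list, 4 or 5 Ephs and ephrins, 6 to 8 cadherins and 2 to 4 Ig-type genes fell. The rises were 2 or 3, 1, 0 or 1 and 0 in the same order, and Sema3b passed in none of these fits.

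Matrix genes moved both ways. Of 39 collagen genes 6 fell and 1 rose (17.9%). The falls were in Col3a1, the cartilage collagens Col9a1 (-1.85, with 1 of its 2 probe sets at 0.037) and Col2a1 (-1.39, 0.75 and 0.87 against -0.55 and -0.60), Col1a2 (-1.15), Col25a1 (-0.76) and the basement membrane collagen Col4a6 (-0.74), and the rise in Col18a1 (0.55), another basement membrane collagen. Of 59 laminins, integrins and other matrix proteins 8 rose and 5 fell (22.0%). The rises included the basement membrane genes Hspg2 (0.61), Lamc1 (0.55), Lamb1 (0.43) and Nid2 (0.42), beside Fbln2 (1.19) and Sdc4 (0.92). The falls included Itga4 (-1.92, with 1 of its 5 probe sets at 0.28), Itgb8 (-1.40), the brain matrix gene Ncan (-0.70) and the basement membrane laminin Lama2 (-0.60). Without 1 of the 4 arrays 1 to 4 of these rose and 2 or 3 fell, and 4 or 5 collagens fell.

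The labelled cell type was checked with markers. All 6 progenitor markers and all 4 neuron markers were bright, in the class of median log2 levels from 8 upwards. So were 2 of 5 ES-cell markers, 2 of 4 endoderm markers, 2 of 4 epithelial markers and 1 of 2 neural crest markers. No marker of mesoderm, muscle, endothelium or blood was in this class. The class is set by a median over all arrays of the study, parental ones included, so it does not describe the compared arrays alone. Brightness therefore does not set the labelled cell type apart. Of the progenitor markers, Nes rose slightly (0.48, adjusted p = 0.0494), Fabp7, a radial glia lipid carrier, fell (-1.78 ± 0.10, both arrays labelled -Dox at 0.00 after rounding and those labelled +Dox at -1.80 and -1.76), and Sox2 and Pax6 fell. Of the neuron markers 3 of 4 fell. Summed over the 6 progenitor markers, the arrays labelled -Dox lay at 0.27 to 0.30 and those labelled +Dox at -2.64 to -2.53, and over the 4 neuron markers at -0.83 to -0.60 and -3.36 to -2.99. In the longer list of 25 progenitor and radial glia genes 2 rose, Nes and the glutamate transporter Slc1a3 (1.24), and 6 fell (32.0%). Without 1 of the 4 arrays 1 rose and 2 fell.

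Markers of undifferentiated and of epithelial cells moved the other way. Of 30 pluripotency genes 12 rose and 1 fell (43.3%), with 27 of 30 above 0 and a list median of 0.40. Pou5f1, the central pluripotency factor, had -1.42 and -1.21 in the arrays labelled -Dox and -0.63 and -0.41 in those labelled +Dox (0.80 ± 0.16, adjusted p = 0.0168), and the 4 parental arrays lay far above both, between 1.96 and 2.40. Zfp42 (0.95), Fbxo15 (0.89), Dppa4 (0.63), Utf1 (0.61, with 1 of its 3 probe sets at -0.082) and the DNA methyltransferase Dnmt3b (0.55) also rose, and Nanog (0.48 ± 0.15, adjusted p = 0.0969) did not pass. The sum over 5 ES-cell markers, of which 2 rose, moved from between -5.64 and -5.37 to between -3.16 and -2.69. The list's count depends on the arrays: 3 genes rose with -Dox replicate 1 left out and 6 with -Dox replicate 2 left out, 4 with +Dox replicate 1 left out and 1 with +Dox replicate 2 left out. Of 42 epithelial and placode markers 11 rose and 0 fell (26.2%), with 35 of 42 above 0 and a median of 0.30. The desmosome gene Dsp (1.22, -0.29 and -0.51 against 0.92 and 0.71), Krt7, Krt19 (0.98), Tfap2c (0.87), Grhl3 (0.76), Epcam (0.57) and Cdh1 are among them, and without 1 array 3 to 6 rose. The sum over 4 epithelial markers, of which 2 rose, moved from between -0.15 and 0.00043 to between 2.67 and 2.97.

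Markers of other cells were read as well. Of 37 mesoderm and endoderm markers 4 rose and 0 fell (10.8%): Rbp4, Apoa1 (0.88), Tcf15 and Tbx6 (0.68). Their median was 0.18, and without 1 array 1 or 2 rose. The 4 defining endoderm markers did not pass, although their sum moved from between -0.31 and 0.18 to between 1.91 and 2.24. Of these, Ttr was at 1.54 ± 0.59 (adjusted p = 0.172). Its values were -0.47 and -0.63 in the arrays labelled -Dox and 0.90 and 1.09 in those labelled +Dox. The SE of Ttr draws on the spread within all groups of the study and is not that of these arrays alone. The 2 defining neural crest markers, Sox10 (-0.37) and Foxd3 (-0.45), did not pass either, while the longer list of neural crest and mesenchyme genes had 8 falls and 5 rises among 32 (40.6%), the falls led by Col3a1 and Pax3 and the rises by Islr, Prrx1 and the surface protein Thy1 (1.02). Without 1 array 5 or 6 of that list fell and 1 to 3 rose. The 3 endothelial and blood markers were all dim, with median log2 levels under 4, and none passed. How much of any change came from other proportions of cells was not tested.

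Genes of cell division leaned upwards by little. Of 52 DNA replication and mitosis genes, 49 were above 0 with a median of 0.16, and 6 rose (11.5%): E2f8 (1.13), Bub1b (0.46, with 1 of its 3 probe sets at -0.22), Tk1 (0.46), Ccne1 (0.43), Aurka (0.37) and Gins1 (0.36). Mki67 (0.15 ± 0.09), Pcna (0.085 ± 0.08) and Top2a (0.043 ± 0.09) did not pass, and without 1 of the 4 arrays 0 to 2 members rose. With array quality weights 15 of these genes rose, with quantile normalization 14, and in a fit of the 4 arrays alone 2. Of 34 cell cycle inhibitors, p53 targets and apoptosis genes 1 fell, Hrk (-0.64), and 0 rose (2.94%), with Cdkn1a at -0.12 ± 0.11. Of 21 genes of cholesterol synthesis none passed, and they ran from -0.11 to 0.19. Glycolysis and hypoxia genes had 1 rise and 2 falls among 31 (9.68%), the neuronal enolase Eno2 (-0.97) and Pfkp (-0.80) being lower. Of 43 chromatin regulators 5 rose and 3 fell (18.6%), among them the germline cofactor Dnmt3l (1.03) upwards and the neuronal genes Prdm8 (-1.80) and Actl6b (-0.78) downwards. Of 32 imprinted genes 4 rose, led by Dlk1, Phlda2 (0.93) and Magel2 (0.74), and 4 fell, led by Asb4 (-1.88) and Nap1l5 (-0.97) (25%). Without 1 of the 4 arrays 1 or 2 imprinted genes rose and 2 or 3 fell, and 2 or 3 chromatin regulators rose and 1 to 3 fell.

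Some of the largest changes lay side by side in the genome. Over 18006 pairs of genes that are neighbours in RefSeq's order among those tested, both passed in 136 pairs (0.755%), and in 114 of these both moved the same way. Nr2e1 sits next to Gm38491 (-3.52 and -2.31), Wnt1 next to Ddn (2.83 and 1.72), Nr2f1 next to Gm38604 (-1.97 and -2.42), Nr2f2 next to B130024G19Rik (-1.38 and -2.0), Tfap2d next to its relative Tfap2b (-2.66 and -1.0) and En2 next to Cnpy1 (-2.0 and -0.99). Islr and Stra6 (2.47 and 1.03) are neighbours that rose, and Fabp7 and Smpdl3a (-1.78 and -1.73) neighbours that fell. Dmrta2 and Elavl4 (-2.42 and -0.67) are neighbours as well. Pcp4 and Dscam (2.41 and -0.61) are an example of neighbours with opposite signs. Mab21l1 and Mab21l2 each sit beside a larger gene that fell less, Nbea (-0.81) and Lrba (-0.50). Whether neighbouring probe sets read a shared transcript was not tested.

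Most changes of day 7 were found again in the separate arrays of day 9. The tests of both days share each gene's estimate of spread, so passing at 1 day is not independent of passing at the other. There 3076 genes rose (16.9%) and 2053 fell (11.3%). Of the 561 genes that rose at day 7, 451 rose at day 9 (80.4%), 9 fell and 101 did not pass. Of the 701 that fell, 505 fell again (72.0%), 9 rose and 187 did not pass. Seen from day 9, 14.7% of the rises and 24.6% of the falls were already present at day 7. All 24 genes with the largest changes passed in the same direction at day 9, and so did 34 of the next 36, without Gfod1 (1.62 at day 7 and 0.24 at day 9) and Prss23 (-2.24 and -0.34). The response itself changed with time in 441 genes (2.42%), of which 7 are among the 24: it grew for Foxc2 (2.58 to 4.38) and Krtap17-1 (2.28 to 4.08), and shrank for Gm3764 (3.15 to 1.84), Defa31 (2.59 to 0.82), Mab21l2 (-3.33 to -2.14), Mab21l1 (-3.19 to -1.46) and Wfdc1 (-3.15 to -1.23). Adjusted p for these differences ran from 0.00478 for Wfdc1 to 0.0429 for Defa31. Of the signalling genes, Wif1 (0.95 to 2.95, adjusted p of the change 0.0047), Inhbb (1.12 to 2.86), Wnt5a (0.72 to 2.10) and Notum (0.74 to 2.06) grew. Wnt7a (-1.05 to -0.074, adjusted p of the change 0.044) and Fabp7 (-1.78 to -0.23, adjusted p of the change 0.0022) shrank to values that did not pass at day 9.

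In 18 genes the response turned over, passing at both days in opposite directions. Olig2 fell by 1.68 at day 7 and rose by 0.92 at day 9, a change of 2.59 ± 0.28 (adjusted p = 0.00465). Its day 7 values were 1.54 and 1.26 in the arrays labelled -Dox and -0.35 and -0.21 in those labelled +Dox. The other genes that fell and then rose were Shisa3 (-1.05 and 0.98), which inhibits Wnt and Fgf receptors, the matrix gene Sparcl1 (-0.75 and 0.98), Etv4 (-0.61 and 0.98), Fst (-1.02 and 0.51), Mfap3l (-0.55 and 0.59), Glis3 (-0.46 and 0.58), Ell2 (-0.41 and 0.59) and Tnfaip2 (-0.38 and 0.41). The 9 that rose and then fell were led by Sez6l (1.30 and -0.95), a neuronal membrane protein, Elfn1 (0.73 and -0.99), the carbonic anhydrase Car3 (0.87 and -0.48) and the hormone Stc2 (0.75 and -0.48). The difference between days passed in all 18, with adjusted p from 0.00224 for Sez6l to 0.0238 for 4930451I11Rik.

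**Figure D5:**
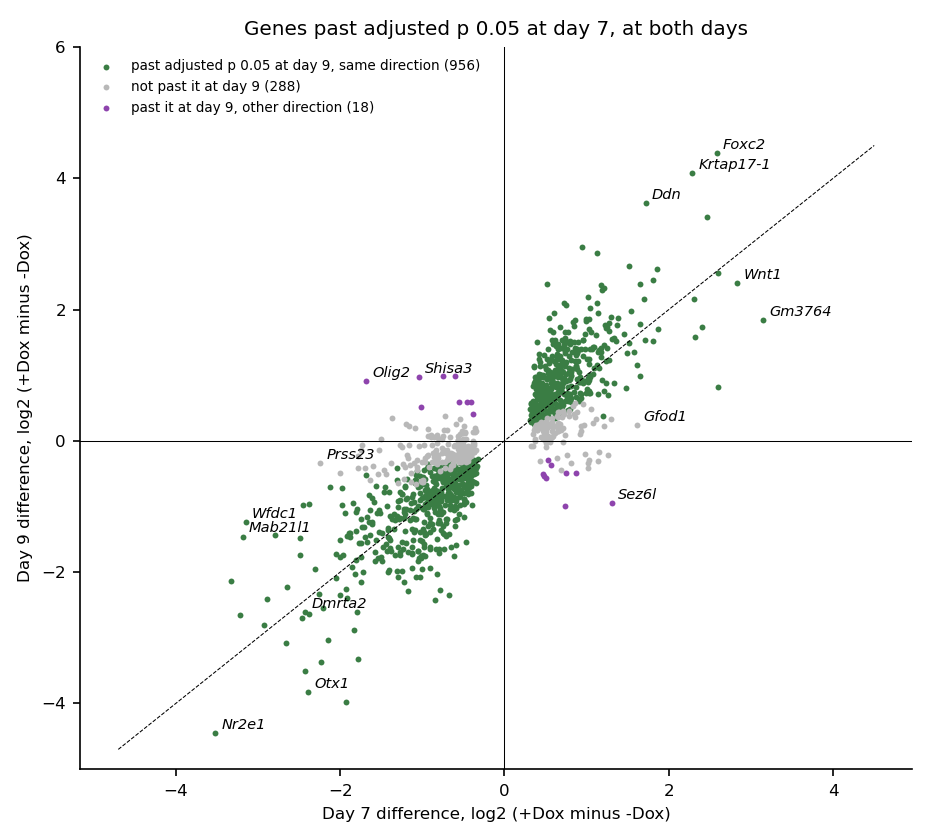
Difference at day 9 (y axis) against that at day 7 (x axis), both log2 and arrays labelled +Dox minus -Dox of rtTA-Dmrt5, for the 1262 genes that passed at day 7, with the dashed line marking equal values. Green genes passed in the same direction at day 9, grey ones did not pass there, and the 18 purple ones, Olig2 and Sez6l among them, passed in the other direction.

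Control probe sets bear on the whole comparison. The spike-ins added before hybridisation had a mean of 0.16 (SD 0.06) without and -0.19 (SD 0.24) with Dox, by label. That is a difference of -0.35, beside one of -0.29 in the parental line. In the rtTA-Dmrt5 arrays of day 9 their means were further apart, 0.088 (SD 0.11) without and -0.73 (SD 0.085) with Dox. At day 7 the polyA controls differed by -0.055, and the 3' minus 5' differences of Actb and Gapdh, measures of RNA integrity, by -0.094 and -0.045. At day 9 the means of the latter were -0.024 without and 0.21 with Dox for Actb, and 0.029 and 0.14 for Gapdh. Control probe sets are centred on their medians too, so only differences between groups can be read, not 3' to 5' ratios. The part of these controls in the changes above was not tested.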

How the data were processed

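Total RNA for 12 arrays was amplified from 5 ng and hybridised to Affymetrix mouse arrays, per the labels. The deposited values are log2 expression from RMA, a method that corrects background, normalizes arrays and sums probes, per the submitters' processing notes, and they are centred on each probe set's median, as the values show. The notes do not name the base, taken as 2. The number of arrays limits precision. Of 45101 probe sets, 64 are controls, 34945 have 1 gene symbol, 932 several and 9160 none. A gene's value is the mean of its probe sets in the highest class of median log2 level (under 2, 2 to 4, 4 to 8, 8 or more), read from the spacing of the stored numbers. One mean per group over all 12 arrays was fitted with limma 3.58.1 in R 4.3.3 (lmFit, eBayes, 6 residual degrees of freedom), with Benjamini-Hochberg adjusted p under 0.05 over 18193 genes, and tables were made with pandas 2.3.3 in Python 3.11.15. The fit was tested on simulated data. The 12 largest rises and falls whose arrays do not overlap are given by array, the next 18 each and list members by their difference. Members and lists were chosen with earlier results of these data known. Gene names are from the platform annotation, and 34741 of the probe sets matched RefSeq gene numbers. Same-numbered replicates did not deviate together (correlations 0.018 in rtTA, -0.049 and 0.11 in rtTA-Dmrt5 at days 7 and 9), so numbers were not used as pairs. Alternatives were smaller sets of arrays, array weights, robust eBayes, other probe set rules, level filters, rescaling and leaving out each array.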

Additional observations from a re-analysis of the deposited data

Results flagged for a closer look

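The difference between the lines in the day 7 response passed in limma for all 24 genes with the largest changes. For the rises, the rtTA-Dmrt5 response minus the rtTA response was 3.16 for Wnt1, 3.06 for Foxc2, 2.88 for Gm3764, 2.28 for Defa31, 2.25 for Scn11a and 2.19 for Pcp4. It was 2.14 for Nepn, 2.11 for Hlf, 2.06 for Islr, 1.97 for Krtap17-1, 1.92 for Fgf18 and 1.89 for Rab37. For the falls it was -3.96 for Nr2e1, -3.40 for Gm20083, -3.36 for Mab21l2, -3.34 for Wfdc1, -3.17 for Mab21l1 and -3.08 for Col3a1. It was -2.97 for Ndnf, -2.93 for Pdzph1, -2.84 for Dmrta1, -2.77 for Tfap2d, -2.72 for Adgrv1 and -2.49 for Cartpt. Of the next 36 genes by size, 32 passed as well. These differences share the day 7 rtTA-Dmrt5 arrays that chose the genes, so their size is no independent evidence. Over all genes the line difference passed in 516 (2.84%).

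The response differed between days for 7 of the 24 genes. Day 9 minus day 7 was 1.91 for Wfdc1, 1.80 for Krtap17-1, 1.80 for Foxc2, 1.73 for Mab21l1 and 1.19 for Mab21l2. It was -1.31 for Gm3764 and -1.77 for Defa31. Of the next 36 genes 9 passed for this difference, among them Ddn (1.72 at day 7 and 3.62 at day 9), Otx1 (-2.39 and -3.82), Foxn4 (-2.23 and -3.37) and Pcdh8 (-2.37 and -0.96). The genes were chosen for a large day 7 response.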

How the results depend on the processing

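The count of genes that passed at day 7 (1262) depended on single arrays: with 1 of the 12 left out it ran from 515 to 1384, with 186 to 641 higher and 329 to 743 lower, each lowest count being without replicate 2 of the rtTA-Dmrt5 day 7 arrays labelled +Dox. Array quality weights gave 2355 genes (1206 higher and 1149 lower), and quantile normalization gave 2217 (1161 and 1056); the cause was not tested. With each probe set on its own, 505 probe sets passed at 2-fold. A filter on a median log2 level of at least 8 keeps 5983 genes, of which 875 passed, 447 higher and 428 lower. In the fit of all genes, 153 of this class were higher and 273 lower. With the filter 76 passed at 2-fold. It removes most named genes before the fit, so that 9 passed at day 9, where the full fit has 58, is no loss of calls. A replicate block within line and day left 911 genes, of which 839 are among the 1262, and 299 of 376 named and list genes kept their call. The other alternatives stayed within 1.5 times of the main counts: a fit of the 4 arrays alone gave 987, and rescaling the arrays to a median of 0 gave 1250. No named gene passed in the parental line under any alternative run. Leaving out 1 of the 4 day 7 arrays kept 205 to 246 of the 376 named and list genes. Klf9, of several probe sets, gave -0.049 in the mean of all its probe sets and 0.38 in the brightest. Dim probe sets limit what could be seen: 463 genes lay under a median log2 level of 2, where 0.216% passed.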
